A study of Mus musculus with 14 samples.

Results

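Collagens are the secreted proteins that give muscle its connective tissue, and the gastrocnemius array measured 42 of them among 19505 genes. They were taken as every gene whose symbol is Col, a type number, the letter a and a chain number, and none of the 42 had more than 1 probeset. The RefSeq annotation of the mouse genome (GRCm38.p6) lists 44 such genes, and Col7a1 and Col12a1 were not analysed here. Gene expression came from Clariom S arrays, 1 per mouse, of gastrocnemius muscle from 14 male C57BL/6 mice carrying subcutaneous tumours grown from PANC02 pancreatic cancer cells. Of these, 7 mice ate the control diet (AIN-93G) and 7 ate it with HMB, the leucine metabolite β-hydroxy-β-methylbutyrate, from 1 week before the cells were injected. The labels also give 200 µg of anti-PD1 every 3 days for established tumours, without saying which of these 14 mice received it, and describe RNA extraction from tumour although the tissue is named as gastrocnemius. A tumour-free group was not analysed here, so each difference is between diets in tumour-bearing mice.

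Collagen chains wind in threes into a helix inside the endoplasmic reticulum, are secreted, and are then assembled outside the cell. Fibrillar collagens (types 1, 2, 3, 5 and 11) form the banded fibrils of tendon, skin and the sheaths around muscle. Type 4 makes the network of basement membranes, including those around muscle fibres and capillaries. Type 6 forms beaded filaments next to the basement membrane of muscle fibres, multiplexins (types 15 and 18) anchor basement membranes to the surrounding matrix, and fibril-associated collagens (types 9 and 14 here) sit on the surface of fibrils. In muscle most of this RNA comes from fibroblast-like cells, with endothelium, pericytes and Schwann cells adding to type 4 and other basement membrane chains. In whole tissue, fewer cells of a type and less collagen RNA per cell cannot be told apart.

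Mean collagen signal was lower in HMB muscle in 4 classes and near that of control in the basement membrane class. No single collagen passed the adjusted threshold, and 36 of 42 lay below the background percentile described below on every array. Values are log2 intensities, differences are HMB minus control in log2 units, and errors are SD with n = 7 per group unless a standard error (SE) is named. The class mean was lower by 0.69 for multiplexins, by 0.45 for fibrillar, by 0.40 for fibril-associated and by 0.18 for type 6 collagens, and the 6 basement membrane chains averaged a difference of -0.07. By single gene, 32 of 42 collagens (76.2%) had the lower mean in HMB, against 48.3% of all genes, and their median difference was -0.16 against 0.009 over all genes. At an unadjusted p under 0.05 in limma, 7 collagens (16.7%) fell and 1 rose, where 2.19% of all genes fell and 2.35% rose. After Benjamini-Hochberg adjustment over all genes 0 collagens passed, with adjusted p from 0.990 to 0.999, as did 0 of 19505 genes (0.0%), against 885 (4.54%) at an unadjusted p under 0.05 in limma and 853 by the methods' t-test, of which 0 remained after adjustment. The 2 groups did not overlap for 0 collagens and for 0.0974% of all genes.

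**Figure D1:**
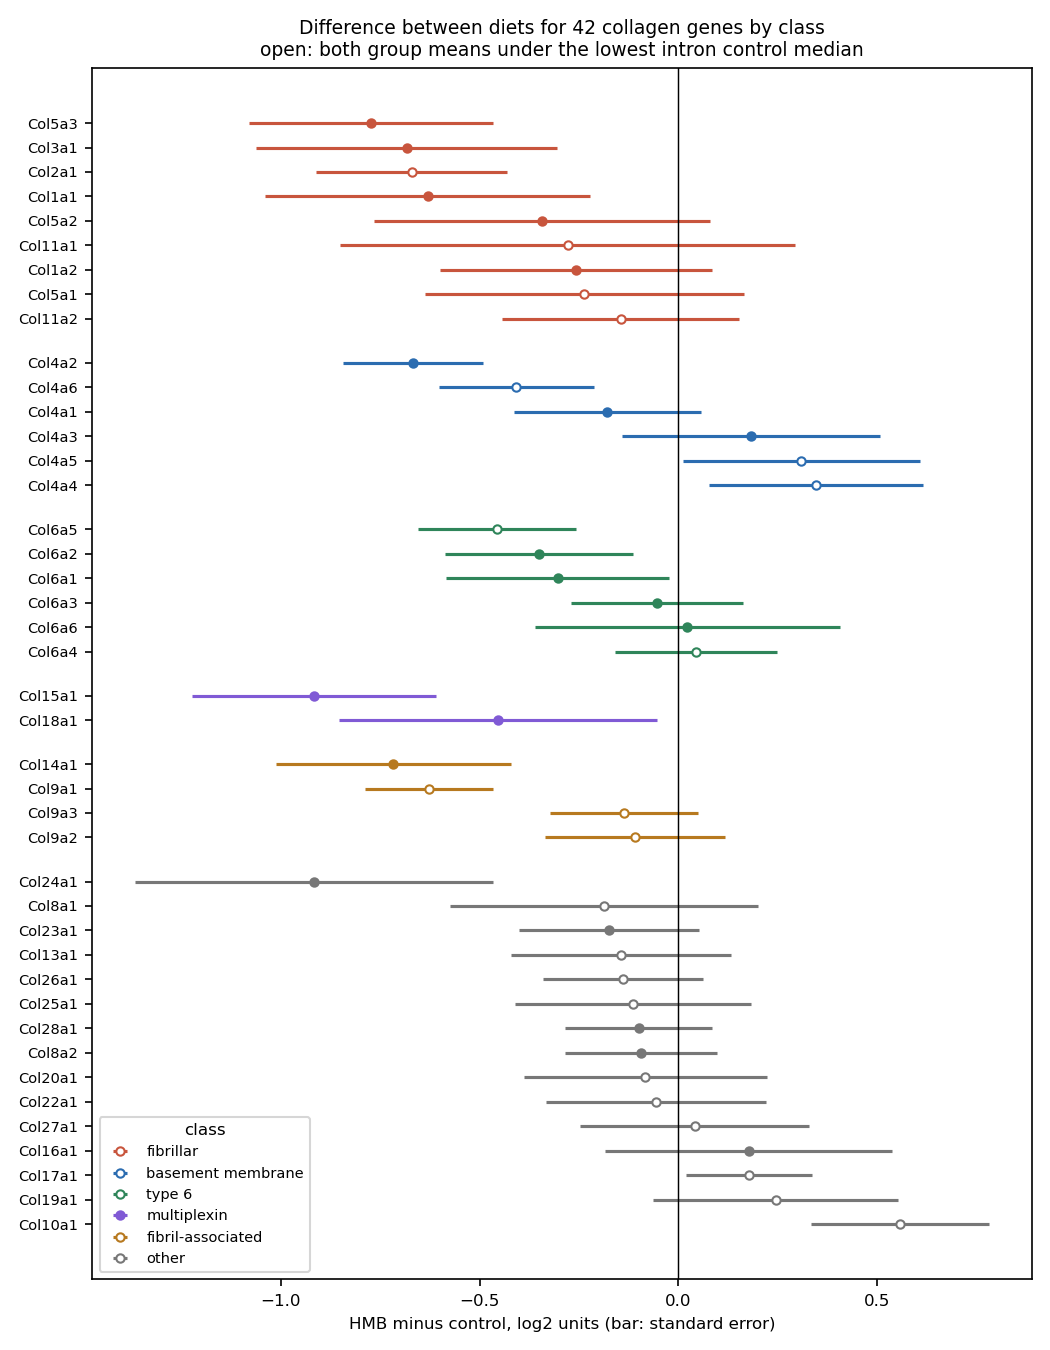
HMB minus control in log2 units (horizontal axis, points) with its standard error (bars) for the 42 collagen genes, ordered by class and coloured by it. All 9 fibrillar, both multiplexin and all 4 fibril-associated chains lie left of 0, while type 4 chains lie on both sides; open points mark the 22 genes with both group means under the lowest array median of the intron controls.

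Most collagen signals on these arrays were dim. Intron control probesets, which match sequence that mature RNA lacks, set the background: their median was 6.25 to 6.67 and their 95th percentile 10.53 to 10.87 over the 14 arrays. Col1a1, Col1a2 and Col3a1 lay above that percentile on 14 of 14 arrays, Col6a1 on 13, Col6a2 on 9 and Col6a3 on 5, and the other 36 lay below it on every array. In 22 collagens both group means were under 6.25. They included 3 of the 6 basement membrane and 3 of the 4 fibril-associated chains. All 7 collagens that fell at an unadjusted p under 0.05 belonged to the 36, and 3 of them (Col9a1, Col2a1 and Col6a5) to the 22. Testing only genes above the percentile on at least 1 array left 6 collagens, with none of these 7 among them. Of the 6, 0 fell at an unadjusted p under 0.05, where 1.25% of all genes in that fit fell.

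The arrays carried muscle RNA, with 6 of 7 fibre markers above the intron percentile on all 14 arrays and the slow fibre myosin Myh7 on 6, and 5 arrays stood apart. Control 7 had the lowest median correlation with the other arrays (0.960, highest array 0.986) and a B cell marker mean of 11.86 against 3.20 to 4.28 elsewhere. Control 3 held the highest value of 14 arrays for 13 collagens, against 5.63% of all genes, and HMB 5 the lowest for 8, against 6.74%. Control 2 was the lowest array for the means of the fibre (14.86), tendon (7.53) and endothelial (10.74) markers. HMB 4 held the highest HMB value of Col1a1, Col1a2, Col3a1, Col6a1 and Col6a3. Fibroblast markers had means of 12.66 ± 0.21 in control and 12.69 ± 0.45 in HMB, with 12.98 on control 3, 13.09 on HMB 4 and 11.97 on HMB 5, the lowest of all arrays. All 5 measured fibroblast markers overlapped between diets, as nearly all genes did (0.0974% of all genes did not), and 4 of them lay above the intron percentile. Endothelial markers differed by -0.05 (-0.16 without control 2) and tendon markers by 0.03 (-0.22 without control 2). The pericyte and smooth muscle markers differed by -0.09 in their mean, with 2 of 6 lower at an unadjusted p under 0.05 beside Col4a2 and Col15a1, where 2.19% of all genes fell. The smooth muscle actin Acta2 was at 14.323 to 14.51 in control and 13.42 to 14.322 in HMB (difference -0.38, unadjusted limma p 0.0145). The groups only just failed to overlap, as HMB 2 lay next to the lowest control. The smooth muscle myosin Myh11 differed by -0.49 (unadjusted limma p 0.0162). Schwann cell markers had a lower mean in HMB (10.04 ± 0.25 and 9.15 ± 0.66, with 7.79 on HMB 5). At an unadjusted p under 0.05, 4 of 4 measured genes fell, where 2.19% of all genes fell. Each had an adjusted limma p of 0.990, and 3 of the 7 listed markers were not measured. The part of these marker levels in the collagen values was not tested.

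Fibrillar collagens had a lower mean in HMB for 9 of 9 genes, 2 of them at an unadjusted p under 0.05. Of all genes, 48.3% had the lower mean in HMB and 2.19% fell at that threshold. The class mean ran from 7.64 to 9.15 with a median of 8.09 in control muscle, and from 7.11 to 8.49 with a median of 7.65 in HMB muscle. Control 3 was the highest control and HMB 4 the highest HMB array, and the groups overlapped. Without control 3 the class difference was -0.28, and without HMB 4 it was -0.57.

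The chains of the abundant fibrils of muscle lay above the intron percentile on every array, and none passed the unadjusted threshold over all 14 arrays. Col3a1 (GRCm38.p6 chromosome 1, 45311538 to 45349706), which builds the thin fibrils of the endomysium, ran from 12.34 through a median of 12.79 to 14.48 in control and from 11.79 through 11.99 to 14.08 in HMB. Of the HMB arrays 5 lay below every control, yet HMB 4 lay above 6 of 7 controls. The difference was -0.68 (SE 0.38, unadjusted limma p 0.0910), -0.98 without HMB 4 (unadjusted limma p 0.00492) and -0.44 without control 3. Col1a1, the major chain of type 1 collagen, was at 12.64 ± 0.85 in control and 12.01 ± 0.82 in HMB, a difference of -0.63 (SE 0.41, unadjusted limma p 0.142), and it was -0.37 without control 3 and -0.88 without HMB 4 (unadjusted limma p 0.0323). Its partner Col1a2 was at 12.81 ± 0.71 and 12.55 ± 0.68, a difference of -0.26 (SE 0.34, unadjusted limma p 0.461) that became -0.016 without control 3 and -0.43 without HMB 4. The 6 collagens above the intron percentile together averaged 11.94 ± 0.59 and 11.56 ± 0.54. All 6 were highest on control 3, and the difference of -0.38 was -0.17 without that array.

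Among the dimmer fibrillar chains, Col5a3, a minor chain that helps start fibrils, ran from 6.19 through 6.77 to 7.12 in control and from 5.06 through 5.79 to 7.47 in HMB. It lay below every control on 6 HMB arrays, and HMB 3 was the highest of all 14. The difference was -0.77 (SE 0.31, unadjusted limma p 0.0238), with an unadjusted p of 0.0555 without HMB 5 and 0.0553 without HMB 7. Col2a1, the chain of cartilage fibrils, was at 4.57 ± 0.20 and 3.90 ± 0.63, both under the intron median (difference -0.67, SE 0.24, unadjusted limma p 0.0135). The other type 5 and 11 chains, Col5a1, Col5a2, Col11a1 and Col11a2, differed by -0.34 to -0.15 with SE from 0.30 to 0.57. Without control 3, Col5a1 and Col11a1 turned to 0.086 and 0.048, and without control 2 Col11a2 turned to 0.056.

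**Figure D2:**
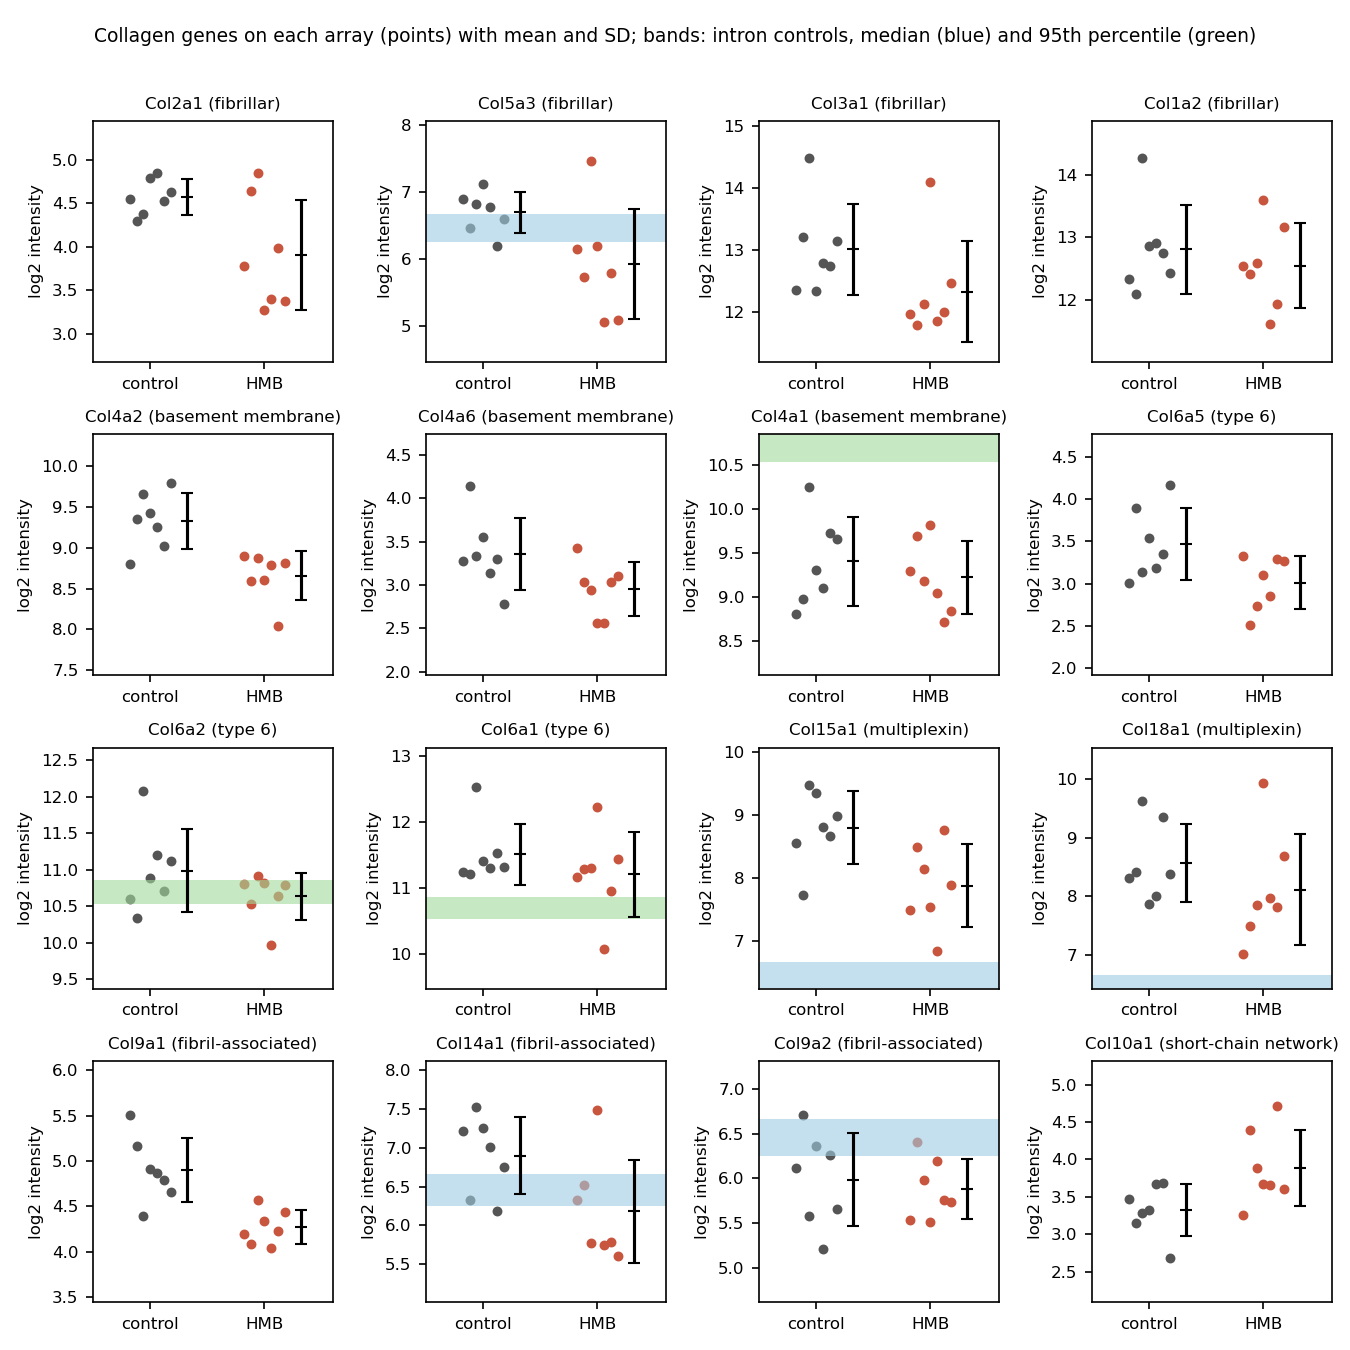
Log2 intensity (vertical axis, scaled per gene) of 16 collagens on each of the 7 control and 7 HMB arrays (points), with group mean and SD (black), and the ranges over arrays of the intron control median (blue band) and 95th percentile (green band) where they enter the panel. For Col4a2 all 7 HMB arrays lie at 8.90 or below and 6 of 7 controls above that, and control 3 stands above the other controls for Col3a1, Col1a2, Col6a1 and Col6a2.

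Basement membrane collagens did not share a direction: 3 of 6 chains had the lower and 3 the higher mean in HMB. At an unadjusted p under 0.05, 1 fell, where 2.19% of all genes fell. The chains of highest level, Col4a1 and Col4a2, both had the lower mean. Col4a4, Col4a5 and Col4a6 had both group means under the lowest intron median, so the class difference of -0.07 rests partly on signals at background. Type 4 genes lie in head-to-head pairs that share a start region. Col4a1 (GRCm38.p6 chromosome 8, 11198423 to 11312889, minus strand) and Col4a2 (11312805 to 11449287, plus strand) encode the chains that pair in almost every basement membrane, in muscle as elsewhere. Their start regions are shown because Col4a2 passed the unadjusted threshold and Col4a1 did not although both are read out of the same stretch. The windows below are RefSeq promoter windows of the same build, 300 bases around a start, 5′ to 3′ on the strand of the gene. The Col4a1 window (11312777 to 11313076) is set on a start inside the gene, not on its outer end at 11312889. Capitals mark the 78 bases that both windows hold, from 11312777 to 11312854, read from opposite strands, and their number holds for these starts.
Col4a1: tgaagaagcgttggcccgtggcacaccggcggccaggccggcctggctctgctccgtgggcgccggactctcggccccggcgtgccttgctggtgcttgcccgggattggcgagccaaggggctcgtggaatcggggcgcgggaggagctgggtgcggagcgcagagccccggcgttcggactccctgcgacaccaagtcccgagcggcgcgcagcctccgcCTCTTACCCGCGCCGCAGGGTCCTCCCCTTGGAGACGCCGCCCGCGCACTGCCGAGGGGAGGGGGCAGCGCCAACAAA
Col4a2: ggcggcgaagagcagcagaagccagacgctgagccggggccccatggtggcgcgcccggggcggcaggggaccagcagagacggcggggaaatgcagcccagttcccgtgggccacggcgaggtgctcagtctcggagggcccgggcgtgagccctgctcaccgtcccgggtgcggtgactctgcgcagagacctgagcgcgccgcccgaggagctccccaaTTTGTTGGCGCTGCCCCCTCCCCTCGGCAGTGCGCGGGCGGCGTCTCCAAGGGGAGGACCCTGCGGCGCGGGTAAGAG
The letters CCAAT, on either strand, occur 1 time in each window and in 37.4% of all 32851 RefSeq windows of this length. GGGCGG, on either strand, occurs 1 time in the Col4a1 window and 3 times in the Col4a2 window, against 35.7% of all windows with at least 1 match. A match of letters is a description and not a bound site.

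Col4a2 ran from 8.80 through a median of 9.35 to 9.79 in control muscle and from 8.04 through 8.79 to 8.90 in HMB muscle. All 7 HMB arrays lay below the control mean and 4 below every control, and control 1 alone among controls lay within the HMB range. The difference was -0.67 (SE 0.18, unadjusted limma p 0.00179), and leaving out each array in turn gave -0.75 to -0.56. Col4a1 ran from 8.81 through 9.31 to 10.25 in control and from 8.71 through 9.18 to 9.82 in HMB. The groups overlapped over most of their range, with control 3 the highest array, and the difference was -0.18 (SE 0.24, unadjusted limma p 0.458). Within an array, Col4a2 minus Col4a1 averaged -0.08 ± 0.41 in control and -0.57 ± 0.45 in HMB. This pair was set side by side after its values were seen, and no test of the contrast between the 2 genes is given.

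The remaining type 4 chains belong to the more restricted networks of kidney, lung and other organs. Col4a6 was at 3.36 ± 0.42 and 2.95 ± 0.31, under the intron median in both groups (difference -0.41, SE 0.20, unadjusted limma p 0.0542), with an unadjusted p of 0.0165 without control 7 and 0.0271 without HMB 1. Col4a3, Col4a4 and Col4a5 had higher HMB means by 0.18 (SE 0.33), 0.35 (SE 0.27) and 0.31 (SE 0.30), none at an unadjusted p under 0.05. Both group means of Col4a4 and of Col4a5 lay under the lowest intron median. The sign of Col4a3 turned to -0.0036 without control 1.

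Type 6 collagens split by chain. Col6a1 and Col6a2, which assemble with Col6a3 into the filaments of muscle matrix, had lower means in HMB without passing the unadjusted threshold. Col6a1 ran from 11.22 through 11.33 to 12.53 in control and from 10.07 through 11.29 to 12.23 in HMB, a difference of -0.30 (SE 0.28, unadjusted limma p 0.296). The 2 medians lay close together, and control 3, HMB 4 and HMB 5 lay apart from the rest. Leaving out each array in turn gave -0.47 (without HMB 4) to -0.11 (without HMB 5). Col6a2 was at 10.99 ± 0.57 and 10.64 ± 0.32 (difference -0.35, SE 0.24, unadjusted limma p 0.158), with all 7 HMB arrays below the control mean, and its difference ran from -0.46 (without control 2) to -0.17 (without control 3). Col6a3, the chain whose end is cut off as endotrophin, was at 10.67 ± 0.49 and 10.61 ± 0.32, and its difference of -0.05 (SE 0.22) became 0.11 without control 3 and 0.017 with arrays centred on their median. Col6a5 passed the unadjusted threshold at 3.47 ± 0.43 and 3.01 ± 0.32, under the intron median in both groups (difference -0.46, SE 0.20, unadjusted limma p 0.0365). Its unadjusted p exceeded 0.05, up to 0.0818, without any 1 of control 2, control 4, control 7, HMB 2, HMB 3 or HMB 5. Col6a6 differed by 0.02 (SE 0.38), and by -0.31 without control 7, where it was lowest (6.03). The class difference of -0.18 was -0.083 without control 3.

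Multiplexins showed the largest class difference of the 5 classes, over 2 genes. Col15a1 (chromosome 4, 47207655 to 47313167), a proteoglycan of muscle and capillary basement membranes, ran from 7.73 through a median of 8.81 to 9.47 in control and from 6.84 through 7.89 to 8.76 in HMB. All 7 HMB arrays lay below the control mean and 3 below every control, and control 2 was the control that lay furthest into the HMB range. The difference was -0.92 (SE 0.31, unadjusted limma p 0.00918), and leaving out each array in turn gave -1.09 to -0.74. Col18a1, the precursor of endostatin, ran from 7.88 through 8.38 to 9.62 in control and from 7.02 through 7.86 to 9.94 in HMB. HMB 4 was the highest of all 14 arrays and 4 HMB arrays lay below every control. Its difference was -0.45 (SE 0.40, unadjusted limma p 0.274), and -0.76 without HMB 4 (unadjusted limma p 0.0306).

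Fibril-associated collagens were lower by mean in 4 of 4 measured genes, against 48.3% of all genes. At an unadjusted p under 0.05, 2 of the 4 fell, where 2.19% of all genes fell. The class averaged 5.83 ± 0.16 on control arrays and 5.44 ± 0.21 on HMB arrays, 5 of which lay below every control. Leaving out each array in turn gave a class difference of -0.44 to -0.36. Both class means lay under 6.25, the lowest intron median, so the class sits at background level. Col14a1, which binds the surface of type 1 fibrils, ran from 6.18 through 7.01 to 7.52 in control and from 5.61 through 5.79 to 7.49 in HMB. HMB 4 reached the top of the control range while 4 HMB arrays lay below every control, and the difference was -0.72 (SE 0.29, unadjusted limma p 0.0279). Without any 1 of control 1, control 3, control 4, HMB 3, HMB 5, HMB 6 or HMB 7 its unadjusted p exceeded 0.05, up to 0.0614. Col9a1 (chromosome 1, 24177589 to 24252738), a chain known best from cartilage, ran from 4.39 through 4.86 to 5.50 in control and from 4.04 through 4.23 to 4.57 in HMB. It lay below every control on 5 HMB arrays, with control 3 the lowest control, and the difference was -0.63 (SE 0.16, unadjusted limma p 0.00143), the smallest p among the collagens. Both of its group means were under the intron median, as was true of its partners Col9a2 and Col9a3, which differed by -0.11 (SE 0.23) and -0.14 (SE 0.19). Among cartilage markers 1 of 4 was lower at an unadjusted p under 0.05, where 2.19% of all genes fell. This was Acan, at 4.76 ± 0.40 and 4.29 ± 0.20, with both group means under the intron median. The cartilage markers averaged 6.33 ± 0.40 and 6.13 ± 0.34 in the control and HMB groups.

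The 15 collagens of other classes averaged a difference of -0.05, with 10 lower and 5 higher by mean. Col10a1, the collagen of growth plate cartilage, was the collagen that rose at an unadjusted p under 0.05, from 3.33 ± 0.35 to 3.88 ± 0.50 (difference 0.56, SE 0.22, unadjusted limma p 0.0246), with both means under the intron median and no call without control 7, without HMB 2 or without HMB 6. Col24a1, a fibril-forming chain outside the types listed above, had a difference of -0.92 (SE 0.45, unadjusted limma p 0.0597) that was -0.61 without control 3, its highest array at 8.65, and -1.21 without control 1 (unadjusted limma p 0.00833). Its unadjusted p was also under 0.05 without control 2 (0.0424) and without control 4 (0.0405). Col28a1, known from the basement membrane around Schwann cells, was at 7.86 ± 0.32 and 7.76 ± 0.37, a difference of -0.10 (SE 0.19), beside a difference of -0.88 in the mean of the Schwann cell markers.

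Chains of 1 molecule were compared across arrays where both exceeded the intron percentile on at least 7 arrays, which left 2 of 16 pairs. Col1a1 and Col1a2 had r = 0.857 over 14 arrays (permutation p 0.00016, adjusted over the 2 pairs 0.00032) and rho = 0.837 (permutation p 0.00029, adjusted 0.00058). Within diets r was 0.844 in control and 0.881 in HMB, and 0.643 over all arrays without control 3 and HMB 4. Col6a1 and Col6a2 had r = 0.779 (permutation p 0.0049, adjusted 0.0049) and rho = 0.635 (permutation p 0.017, adjusted 0.017). Within diets r was 0.855 in control and 0.803 in HMB, but without control 3 and HMB 5 it was 0.175, so the relation rested on those arrays. Both values of a pair come from 1 array and share its scaling.

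**Figure D3:**
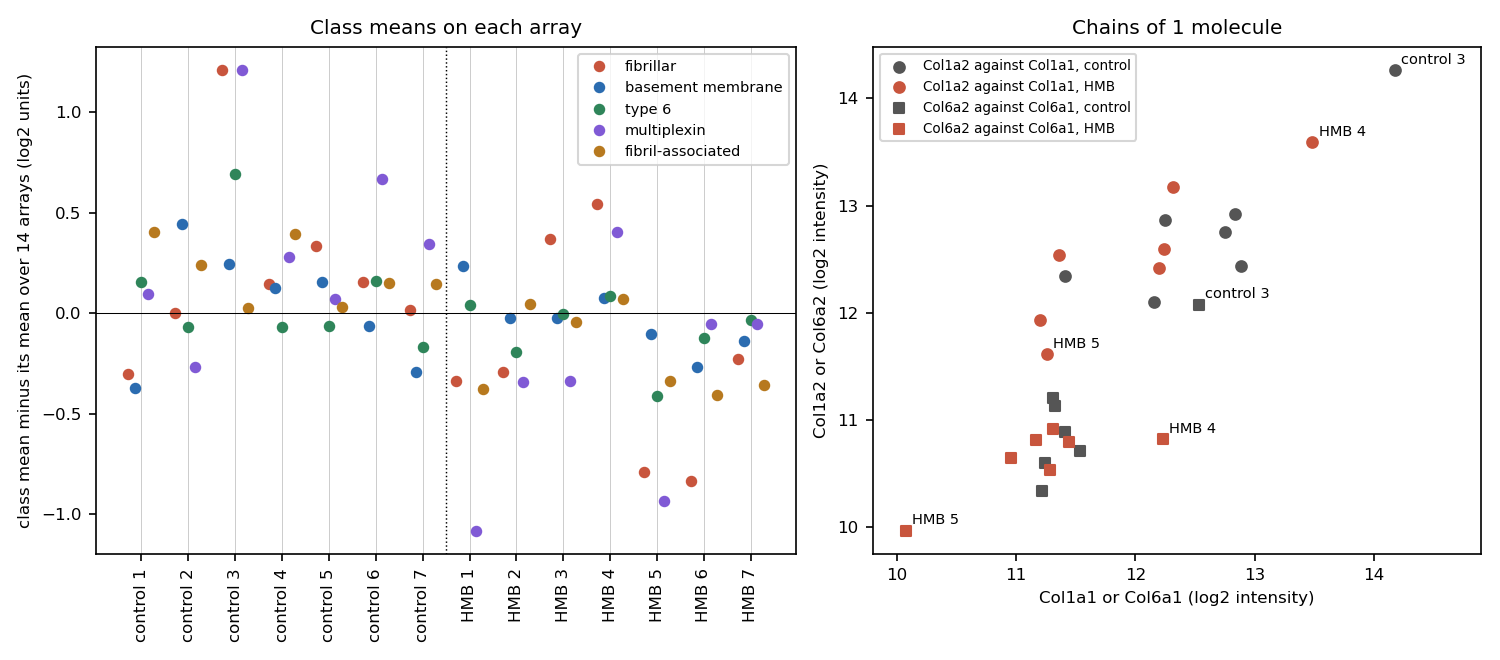
Left, mean log2 intensity of each collagen class minus its own mean over 14 arrays (vertical axis, log2 units) on each array, with the diets split by the dotted line. Right, log2 intensity of Col1a2 against Col1a1 (circles) and of Col6a2 against Col6a1 (squares) on each control (grey) and HMB (red) array. On control 3 the fibrillar and multiplexin means lie highest, and control 3, HMB 4 and HMB 5 mark the ends of the chain pairs.

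Genes that process, break down or bind collagen did not pass an unadjusted p under 0.05 in either direction, where 4.54% of all genes did, a share that amounts to few genes in lists this short. In the synthesis list, which holds the hydroxylases, chaperones, procollagen proteinases and crosslinking oxidases, 0 of 28 measured genes passed and the median difference was -0.06. The closest were the procollagen proteinases Tll1 (-0.54, unadjusted limma p 0.0608) and Tll2 (-0.36, unadjusted limma p 0.0756), the collagen galactosyltransferase Colgalt2 (-0.56, unadjusted limma p 0.0633) and the prolyl hydroxylase subunit P4ha2 (0.27, unadjusted limma p 0.118). Without control 7 the count was 3, where 853 of all 19505 genes passed. In the turnover list 0 of 16 passed, and its median difference was 0.11. The stromelysin Mmp3 (0.55, unadjusted limma p 0.177), the protease inhibitor Reck (0.39, unadjusted limma p 0.191), the membrane collagenase Mmp14 (-0.46, unadjusted limma p 0.218) and the endocytic collagen receptor Mrc2 (0.31, unadjusted limma p 0.262) came closest. Without HMB 4, the highest array for it at 8.27, the difference of Mmp3 was 0.15, and without control 3 that of Mmp14 was -0.22. Among collagen receptors 0 of 12 passed, with a median difference of -0.06. Itga11, an integrin chain for fibrillar collagen, differed by 0.38 (unadjusted limma p 0.235), the inhibitory immune receptor Lair1 by -0.61 (unadjusted limma p 0.271), the proteoglycan Cspg4 by 0.30 (unadjusted limma p 0.304) and the anthrax toxin receptor Antxr2 by -0.20 (unadjusted limma p 0.326).

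Col4a2, Col9a1, Col15a1 and Col2a1 kept an unadjusted p under 0.05 with each array left out in turn. The count of collagens that fell was 4 without HMB 5, all among the 7, and 10 without HMB 4, where Col1a1, Col3a1 and Col18a1 joined the 7. Each class mean kept its sign in each such fit, the basement membrane mean only just (-0.14 to -0.0011). The fibrillar and type 6 means changed most without control 3.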

How the data were processed

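Gastrocnemius RNA of 14 mice was hybridised to Clariom S arrays. The deposited table holds summarised intensities, read here as log2 from their range; per the labels and the methods of the authors, background correction, summarisation and normalisation are not given in the sources used here. Of 28846 probesets, 22206 measured genes, and 19572 with 1 symbol were averaged to 19505 genes. No dim gene was removed. The number of arrays limits the precision. Groups came from sample titles. The diets were compared by limma 3.58.1 under R 4.3.3 (lmFit, eBayes, two-sided), with Benjamini-Hochberg adjustment over all genes and a threshold of 0.05. The step was tested on simulated arrays with planted changes. The adjusted threshold recovered 4% of changes of 0.5, 52% of changes of 1 and 94% of changes of 2 log2 units. Most changes of 0.5 log2 units would thus be missed at that threshold. Class means are descriptions with no test. Correlations used 100000 permutations.

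Members, classes and lists were chosen with earlier results of these data known. Genes were named by rule: per class the 2 of highest mean and the 2 of smallest p, every collagen at an unadjusted p under 0.05, and the 4 of smallest p per further list. Col1a1, Col5a1, Col5a2, Col11a1, Col11a2, Col4a3, Col4a4, Col4a5, Col6a3, Col6a6, Col9a3, Col24a1 and Col28a1 were added after their values were seen. Alternatives were renewed quantile normalisation, median centring, an intron filter, the brightest probeset, trend and robust eBayes, array weights, a replicate block, the methods' t-test and leaving out each array. Fits without control 7 and HMB 4, and without control 3 and control 7, were added after seeing the data.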

Additional observations from a re-analysis of the deposited data

Results flagged for a closer look

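In 94 groups of 7 arrays, formed by each collagen and each class mean within a diet, 12 had 1 array whose gap to its nearest neighbour took up more of the group's range than Dixon's 95% limit (0.568) allows. Chance alone gives about 1 in 20 such groups, and groups of related genes on the same arrays are not independent.

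Control 3 was apart at the top for Col3a1 (14.48, next control 13.20), Col1a2 (14.26, next 12.92), Col6a1 (12.53, next 11.54), the fibrillar mean (9.15, next 8.28) and the type 6 mean (8.65, next 8.12). HMB 4 was apart at the top for Col3a1 (14.08, next HMB array 12.46) and Col6a3 (11.26, next 10.68). HMB 5 was apart at the bottom for Col6a2 (9.97, next 10.53), and HMB 6 for Col4a2 (8.04, next 8.60). HMB 3 stood out for Col11a2 (5.82, next 4.62), control 6 for Col8a1 (5.60, next 3.65) and control 4 for Col25a1 (5.74, next 4.60), all 3 of them genes with both group means under the intron median.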

How the results depend on the processing

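No alternative called a collagen after adjustment. The count of collagens that fell (7 at an unadjusted p under 0.05) was 6 to 8 under renewed quantile normalisation, median centring, trend and robust eBayes, array weights, the brightest probeset and the methods' t-test. Of all genes, from 1.24% (median centring) to 2.66% (array weights) fell in these fits. The intron filter left 6 collagens, none of the 7 among them, and no gene of the basement membrane, multiplexin and fibril-associated classes. With it 0 fell and 0 rose. Leaving out each array gave 4 to 10 that fell (4 without HMB 5, 10 without HMB 4) and 0 to 1 that rose, 0 to 3 synthesis genes (3 without control 7) and 0 to 1 turnover or receptor genes. Of all genes, from 1.99% (without HMB 5) to 2.67% (without HMB 4) fell. The 2 fits chosen after seeing the data, without control 7 and HMB 4 and without control 3 and control 7, gave 9 and 5 that fell, 0 and 0 that rose, and 1 and 1 synthesis genes. Of all genes, 2.95% and 2.53% fell in these 2 fits. Array weights also gave 1 synthesis gene. Class differences over left-out arrays ran from -0.57 to -0.28 (fibrillar), -0.14 to -0.0011 (basement membrane), -0.23 to -0.083 (type 6), -0.81 to -0.54 (multiplexin) and -0.44 to -0.36 (fibril-associated).

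Median centring moved the median difference of all genes from 0.009 to 0.08 and the counts of all genes from 427 lower and 458 higher to 242 lower and 631 higher. Signs turned over left-out arrays for Col11a1 (-0.56 to 0.048), Col11a2 (-0.36 to 0.056), Col4a3 (-0.0036 to 0.36), Col5a1 (-0.45 to 0.086), Col6a3 (-0.16 to 0.11), Col6a6 (-0.31 to 0.19) and Col9a2 (-0.24 to 0.013). They also turned for Col6a4 (-0.067 to 0.19), Col8a1 (-0.35 to 0.15), Col20a1 (-0.29 to 0.024), Col22a1 (-0.22 to 0.10), Col25a1 (-0.22 to 0.092) and Col27a1 (-0.15 to 0.19). In the other fits the signs of only part of the collagens were followed. Among these, signs turned without control 3 and control 7 for Col4a1 (0.040), Col5a1 (0.20), Col6a3 (0.026) and Col6a6 (-0.17). Without control 7 and HMB 4 they turned for Col4a5 (-0.038) and Col6a6 (-0.20). They also turned with median centring for Col6a3 (0.017) and with array weights for Col6a6 (-0.21). The cause was not tested.

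Same-numbered arrays did not deviate together over all genes (correlations -0.07 to 0.12), and no array correlated best with its own number. The numbers were therefore treated as names, though a pairing that touches few genes would not show in this check. With the replicate block 6 collagens fell, where 2.59% of all genes fell, and 1 synthesis gene passed.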
